A study of Mus musculus with 4 samples.

Results

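The genes described here encode the nuclear-encoded subunits of the mitochondrial respiratory chain and of ATP synthase, measured in cultured mouse cells. Members were chosen by symbol: every gene named as an Nduf, Sdh, Uqcr, Cox4 to Cox8 or Atp5 subunit that had a probe set with a single gene symbol. This gave 82 genes of the 19938 measured, namely 34 of complex I, 4 of complex II, 8 of complex III, 19 of complex IV and 17 of ATP synthase. Where several probe sets carried a symbol, the one with the highest mean level stood for the gene. Ndufa4 and its relative Ndufa4l2, named after complex I, were counted with complex IV, of which Ndufa4 is known to be a subunit.

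The series compared marrow mesenchymal stem cells (MSC) grown without and with basic fibroblast growth factor (bFGF, also FGF2), with 2 control cell types, and each of the 4 groups had 1 array. All cells came from C57BL/6 mice. The MSC were flushed from femurs and tibiae, left to attach to plastic for 5 days and grown in Coon's modified F12 medium with 10% fetal calf serum, with no bFGF or with 1 ng/ml of it. The osteoblasts were released from the calvariae of newborn mice by enzyme digestion and grown in DMEM with 10% serum, and the growth of the embryonic stem cells (ESC) is not described in the sources used here. Whole cultures were profiled, so fewer cells of a type and less RNA per cell cannot be told apart. With 1 array per group there was no replicate check, no test and no SD between cultures, and all differences below compare single arrays.

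The respiratory chain passes electrons from NADH (complex I) and succinate (complex II) through ubiquinone to complex III, then through cytochrome c to complex IV, which reduces oxygen. Complexes I, III and IV pump protons, and ATP synthase uses the gradient to make ATP. Pluripotent stem cells are known to lean on glycolysis, and oxidative phosphorylation is known to increase when MSC differentiate into osteoblasts.

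Levels are log2 values, a difference of 1 is 2-fold, and each difference is the level in the array named first less that in the other. The floor of an array was the median of its single-symbol probe sets, 6.46 in both control arrays, 6.29 in MSC without bFGF and 6.32 in those with it. The sequence of a probe set affects its brightness, so levels of different genes are not set against each other as amounts of transcript. The SD between probe sets of the same gene, over 486 genes, served as the yardstick of measurement: it was 0.14 for MSC with minus without bFGF and between 0.19 and 0.23 for the other pairs. It says nothing of the spread between cultures.

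Marker genes were read as a check of the labels. Of 9 pluripotency markers, 6 were above the floor in the ESC array, 0 in osteoblasts, 0 in MSC without bFGF and 1 in MSC with bFGF. In the array labelled osteoblasts Sp7, Ibsp and Alpl, which define the lineage, were under the floor at 5.36, 4.53 and 6.03, while the collagen gene Col1a1 was at 12.60. The summed linear level of 15 macrophage markers was 5366 in ESC, 40947 in osteoblasts, 2652 in MSC without bFGF and 17117 in MSC with bFGF. Between the MSC arrays 14 of the 15 were higher with bFGF by 2-fold or more, against 4.09% of all genes above the floor. Of 10 stromal markers, 5 were above the floor in MSC without bFGF, 7 with bFGF, 8 in ESC and 9 in osteoblasts. The part of these cells in the differences below was not tested. Comparisons of MSC with ESC do not use the array labelled osteoblasts and are given beside those that do.

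Promoters of 67 of the 82 genes were found among RefSeq promoters of the mouse assembly GRCm38.p6, each running from 250 bases before to 50 bases after the start of the gene. They were searched on both strands for letters bound by 4 factors known to act on respiratory genes. The NRF1 letters, which read the same on both strands and are spelled in capitals in the Cox6a1 sequence shown here, were in 5 of the 67 promoters, or 7.46%, against 1.07% of 27025 promoters of all genes and 1.61% of those of measured genes. ETS letters (CCGGAAGT, as read by GABP) were in 5, or 7.46%, against 4.31% of all and 6.01% of measured genes. YY1 letters (AAGATGGC) were in 10, or 14.9%, against 3.19% of all and 3.77% of measured genes. The estrogen-related receptor letters (TCAAGGTCA) were in 2, Atp5g3 and Sdhd, or 2.99%, against 0.466% of all and 0.346% of measured genes. No promoter among the 67 held letters of more than 1 of these factors. A match is a description of the letters, not a binding site.

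The YY1 letters are shown because their place was shared: in 8 of the 10 promoters they began 23 to 39 bases after the start, and in 9 of the 10 they ran in the direction of the gene. The letters hold an ATG, so they can also overlap a start codon. Their place and direction in the promoters of other genes were not examined, so neither is shown to be particular to these members. The 30-base windows of 6 members follow, written 5′ to 3′ on the strand of the gene in GRCm38.p6, with the YY1 letters or their reverse complement in capitals.
Ndufs7, chr10:80249455-80249484, plus strand: tgtctgaaggccgaggccAAGATGGCggcg
Ndufa9, chr6:126849104-126849133, minus strand: cgtgaggcattgtgggagAAGATGGCggcc
Ndufb8, chr19:44555393-44555422, minus strand: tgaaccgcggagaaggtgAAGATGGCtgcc
Ndufs6, chr13:73328438-73328467, minus strand: gggtcaagggtcaccggcAAGATGGCggcg
Ndufs4, chr13:114388048-114388077, minus strand: ctggcgtttgcctacaggAAGATGGCggcg
Atp5pb, chr3:105959255-105959284, minus strand: tcgcgagatgtgcgagcgGCCATCTTgctc

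The 250 bases before the start of 3 other members follow, from the same RefSeq table and written in the same way. Cox6a1 is shown for its NRF1 letters, in capitals, which begin 162 bases before the start. Ndufs5 and Cox7b2 are shown because their levels differed widely between arrays; neither held any of the 4 motifs in its 300-base promoter. The upstream bases of Cox6a1 held 26 CpG, those of Ndufs5 18 and those of Cox7b2 9.
Cox6a1, chr5:115348959-115349208, minus strand: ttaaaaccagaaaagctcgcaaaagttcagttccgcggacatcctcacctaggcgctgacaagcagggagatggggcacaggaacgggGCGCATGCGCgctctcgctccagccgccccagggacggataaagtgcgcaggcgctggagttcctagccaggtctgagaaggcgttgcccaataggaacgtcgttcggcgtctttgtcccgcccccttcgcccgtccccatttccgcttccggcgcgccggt
Ndufs5, chr4:123718187-123718436, minus strand: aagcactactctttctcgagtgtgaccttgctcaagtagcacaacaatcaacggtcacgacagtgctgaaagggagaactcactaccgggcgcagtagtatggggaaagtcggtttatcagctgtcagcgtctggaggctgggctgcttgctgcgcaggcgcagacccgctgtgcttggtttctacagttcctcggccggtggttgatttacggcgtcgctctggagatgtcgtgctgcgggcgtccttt
Cox7b2, chr5:71548206-71548455, minus strand: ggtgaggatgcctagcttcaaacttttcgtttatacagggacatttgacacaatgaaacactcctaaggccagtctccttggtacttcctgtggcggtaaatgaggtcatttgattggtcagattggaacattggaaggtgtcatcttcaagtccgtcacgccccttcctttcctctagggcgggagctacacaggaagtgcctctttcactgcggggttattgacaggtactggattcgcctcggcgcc

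Most members were well above the floor and varied little. Of the 82 genes, 74 were above the floor in all 4 arrays, 4 in some (Ndufb10, Cox6b2, Cox7a1 and Cox7b2) and 4 in none (Cox4i2, Cox8b, Cox8c and Ndufa4l2). The range over the 4 arrays was under 0.5 for 40 genes and 1 or more for 14, with a median of 0.53, against 0.70 over all genes. The median member level was 9.21 in ESC, 9.35 in osteoblasts, 9.64 in MSC without bFGF and 9.50 in MSC with bFGF.

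**Figure D1:**
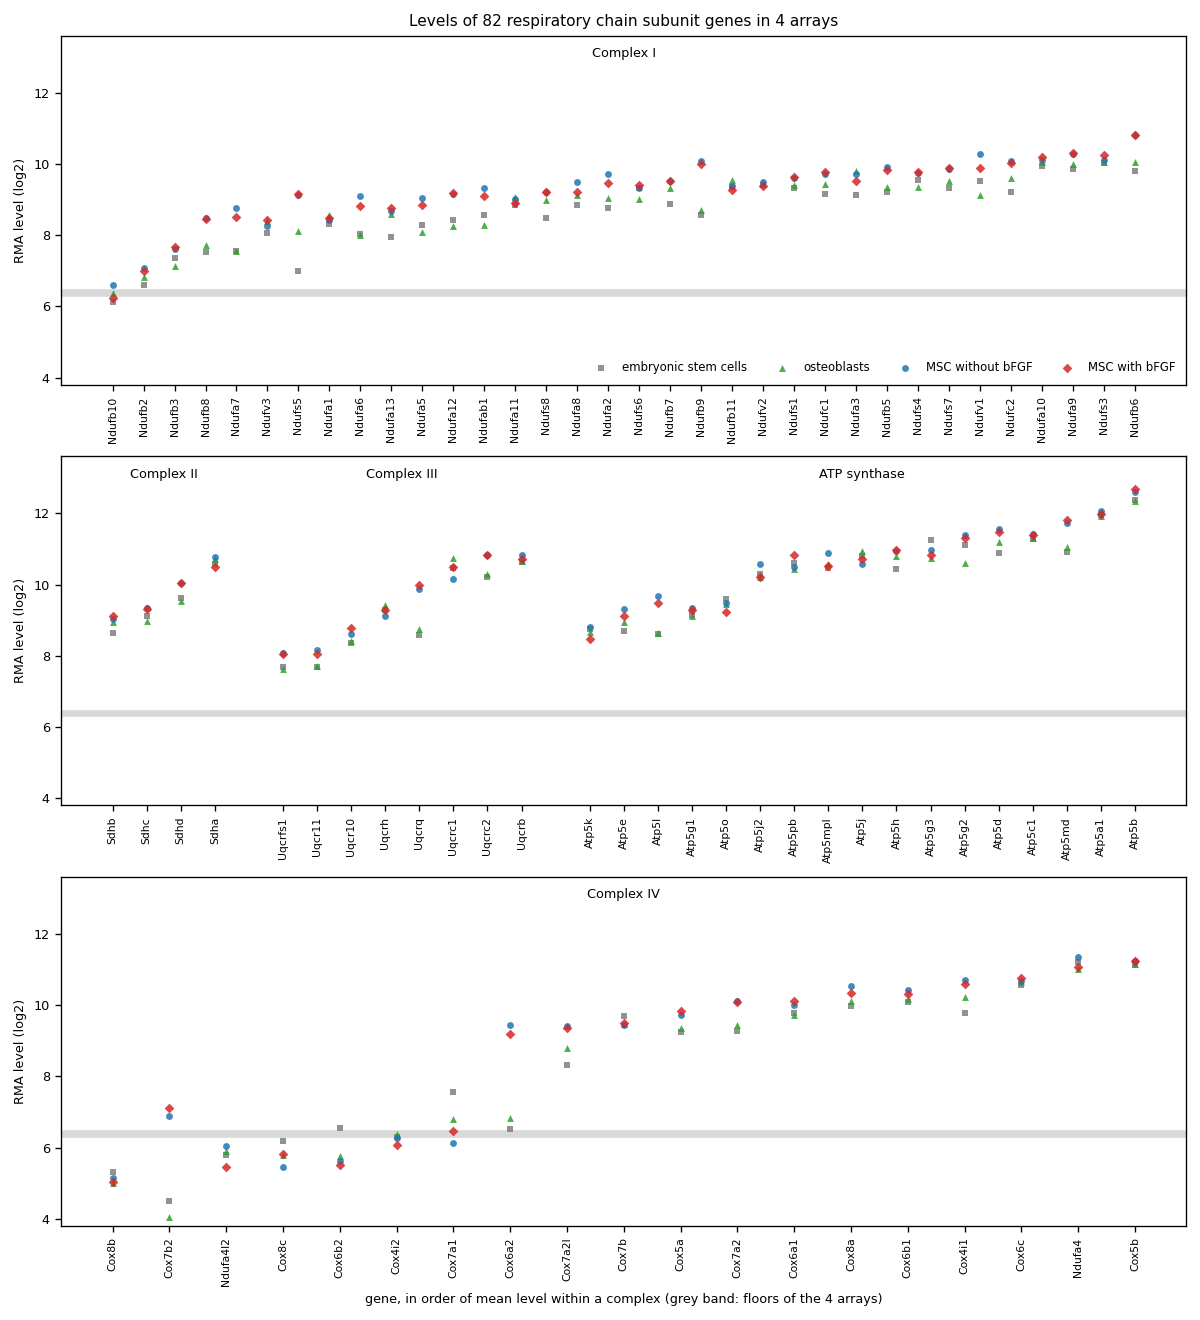
RMA level (log2, vertical axis) of each of the 82 genes, by complex and in order of mean level, with 1 point for each of the 4 arrays and a grey band over the floors of the 4 arrays. Both MSC arrays lie above both control arrays for Ndufb9, Uqcrq, Atp5l and Cox6a2, whereas the points of Ndufv2, Cox5b and Atp5c1 nearly coincide.

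Respiratory chain genes tended to be higher in both MSC arrays than in both control arrays. This order held for 57 of the 82 genes, or 69.5%, against 24.4% of all 19938 genes and, of genes above the floor, a background of 31.5%. The opposite order, both MSC arrays below both controls, held for 4 members, Cox4i2, Cox6b2, Cox7a1 and Atp5j, against a background of 21.6%. Genes in the first order numbered 27 of 34 in complex I, 3 of 4 in complex II, 6 of 8 in complex III, 11 of 19 in complex IV and 10 of 17 in ATP synthase. Few gaps were large: 13 members lay at least 1.5-fold above both controls (background 7.34%) and 5 at least 2-fold (background 2.53%), namely Cox6a2, Cox7b2, Ndufb9, Uqcrq and Ndufs5. With quantile normalization repeated the count of 57 was 45, against 28.8% of genes above the floor.

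Differences from ESC were small for most members and mostly upward. MSC without bFGF were higher than ESC for 70 of the 82 genes. The median difference was 0.39, against 0.08 over all genes and 0.10 over those above the floor. Of the members, by the probe sets used, 10 were 2-fold or more higher (background 10.4%) and 1, Cox7a1, was lower (background 11.8%). After a loess curve on level was removed, 6 were 2-fold or more higher, against 921 of 10977 genes above the floor. The member median was then 0.22. At 1.5-fold 29 were higher (background 23.7%) and 2 lower (background 19.8%), and of all genes above the floor 55.8% were higher by any amount. MSC with bFGF were higher than ESC for 66 genes, with a median of 0.36 against 0.01, and 7 were 2-fold or more higher (background 11.3%) and 2 lower (background 10.6%). At 1.5-fold 25 were higher (background 24.1%) and 2 lower (background 18%), and 57.2% of all genes above the floor were higher by any amount. In that pair the median of all genes above the floor was 0.12, and after centring on it the member median was 0.24. After loess the member median was 0.19.

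Differences from the osteoblast array had the same direction. MSC without bFGF were higher for 69 of the 82 genes, with a median of 0.29 against 0.03 over all genes and 0.09 over those above the floor. At 2-fold 10 members were higher (background 8.17%) and 0 lower (background 13.3%). The count of 10 was 6 after centring and 4 after loess, against 748 and 712 of the 10973 genes above the floor. The member median was 0.17 after loess. At 1.5-fold 19 were higher (background 21.4%) and 1, Cox7a1, lower (background 20.7%), with 55.5% of all genes above the floor higher by any amount. MSC with bFGF were higher for 64, with a median of 0.22 against -0.07 over all genes and 0.09 over those above the floor. After centring on the latter the member median was 0.13. Of the members, 5 were 2-fold or more higher (background 7.5%) and 0 lower (background 9.71%). At 1.5-fold 17 were higher (background 19.9%) and 0 lower (background 18.4%), with 55.3% of all genes above the floor higher by any amount. Osteoblasts and ESC differed less, with a median of 0.09 against 0.07 over all genes and 0.03 over those above the floor. After loess the member median was 0.03. Of the 82 members 53 were higher in osteoblasts, against 51.5% of all genes above the floor. Ndufs5 alone was 2-fold or more higher in osteoblasts (background 12.3%) and 0 were lower (background 8.83%). At 1.5-fold Ndufs5, Ndufa3 and Ndufa13 were higher (background 22.8%) and Cox6b2 and Cox7a1 lower (background 19.6%). These comparisons share arrays and are not independent of each other.

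**Figure D2:**
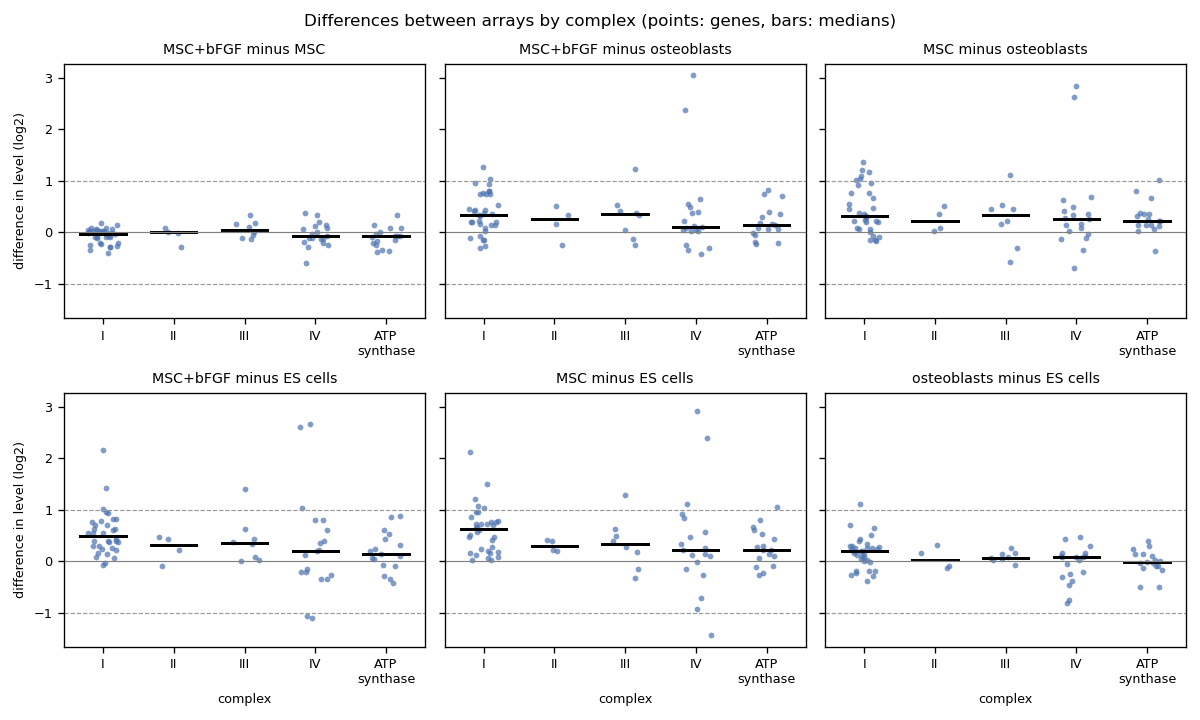
Difference in level (log2, vertical axis) of each gene (points) and the median (bars) for each complex (horizontal axis), with 1 panel for each of the 6 pairs of arrays and dashed lines at 2-fold. In MSC minus ES cells, the panel of MSC without bFGF, all 34 complex I genes lie above 0 with the probe sets used. In MSC with minus without bFGF no gene reaches a dashed line.

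Complex I, the NADH dehydrogenase, had the highest median difference from ESC. For MSC without bFGF minus ESC the median was 0.63 for complex I, 0.30 for complex II, 0.33 for complex III and 0.22 for both complex IV and ATP synthase. With the probe sets used, each of the 34 complex I genes was higher in MSC without bFGF than in ESC. After centring 30 and after loess 26 were above 0. For this pair the other probe sets of Ndufb11 and Ndufa11 gave -0.15 and -0.04, against 0.03 and 0.15 for those used. For MSC with bFGF minus ESC the complex I median was 0.49 and 32 of the 34 were higher. The 28 genes of accessory subunits, which surround the catalytic core, had a median of 0.66 without and 0.55 with bFGF, and the 6 core genes had 0.40 and 0.34. Against osteoblasts the complex I median was 0.32 without bFGF and 0.35 with it, and that of complex III was 0.34 and 0.36.

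Ndufs5, an accessory subunit on the intermembrane side, had the widest range in complex I, with levels of 7.01 in ESC, 8.11 in osteoblasts, 9.13 in MSC without bFGF and 9.16 with bFGF. ESC were lowest, osteoblasts lay between and the MSC arrays were nearly equal. The differences from ESC were 2.13 without and 2.15 with bFGF, and those from osteoblasts 1.02 and 1.04.

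Ndufb9, an accessory subunit of the membrane arm, read 8.57 in ESC, 8.72 in osteoblasts, 10.07 in MSC without bFGF and 10.00 with bFGF. The controls lay close together and both MSC arrays stood 1.28 to 1.51 above them. Ndufb6, of the same arm, read 9.80, 10.06, 10.82 and 10.81 in that order of arrays. Its differences from ESC were 1.02 and 1.01, and from osteoblasts 0.76 and 0.75.

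In 4 further accessory genes the controls lay near each other and MSC without bFGF stood highest or nearly so. Ndufa7 read 7.56 in ESC, 7.55 in osteoblasts, 8.76 in MSC without bFGF and 8.52 with bFGF. Ndufa6 read 8.03, 8.01, 9.10 and 8.81 in the same order. Ndufab1, the mitochondrial acyl carrier protein that also serves fatty acid synthesis, read 8.56, 8.29, 9.33 and 9.10. For Ndufa12, at 8.43, 8.25, 9.16 and 9.19, the MSC arrays differed by 0.03.

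The core subunits carry the flavin and the iron-sulfur clusters. Ndufv1, which holds the NADH site, read 9.51 in ESC, 9.13 in osteoblasts, 10.29 in MSC without bFGF and 9.90 with bFGF. It was 1.17 higher in MSC without bFGF than in osteoblasts, and its value with bFGF was 0.40 lower than without, the lowest difference among members above the floor. Its partner Ndufv2 read 9.42, 9.47, 9.48 and 9.39, a range of 0.09. Ndufs8 was lowest in ESC, at 8.49, and read 8.99, 9.21 and 9.20 in the other arrays. Ndufs1, which accepts electrons from the flavin subunits, ranged over 0.30, Ndufs3 over 0.22 and Ndufs7 over 0.54.

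Other complex I genes did not separate MSC from controls. Ndufb11, Ndufa11 and Ndufa1 had ranges of 0.26, 0.21 and 0.27. Ndufa3 read 9.12 in ESC, 9.81 in osteoblasts, 9.72 in MSC without bFGF and 9.51 with bFGF, so ESC alone stood low. The highest complex I reading was that of Ndufb6 and the lowest that of Ndufb10, at 6.11, 6.38, 6.59 and 6.24, which was above the floor in MSC without bFGF alone.

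Complex II, succinate dehydrogenase, also belongs to the tricarboxylic acid cycle, and its 4 genes stayed within narrow ranges. Sdha, the flavoprotein, read 10.57 in ESC, 10.73 in osteoblasts, 10.76 in MSC without bFGF and 10.48 with bFGF. Sdhb, the iron-sulfur subunit, read 8.64, 8.95, 9.03 and 9.12, with ESC lowest. The membrane anchors Sdhc, at 9.12, 8.99, 9.34 and 9.33, and Sdhd, at 9.62, 9.52, 10.04 and 10.05, were higher in both MSC arrays than in both controls. The largest difference in the complex was 0.52, for Sdhd in MSC with bFGF minus osteoblasts.

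Complex III had 1 gene with large differences. Uqcrq, a small subunit that binds near cytochrome b, read 8.58 in ESC, 8.75 in osteoblasts, 9.87 in MSC without bFGF and 9.98 with bFGF. Both MSC arrays stood 1.11 to 1.39 above the controls. The Rieske iron-sulfur gene Uqcrfs1 read 7.69, 7.62, 8.08 and 8.04 in the same order.

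The genes of the large core proteins, Uqcrc1 and Uqcrc2, did not move together. Uqcrc1 read 10.48 in ESC, 10.73 in osteoblasts, 10.15 in MSC without bFGF and 10.48 with bFGF, lowest in MSC without bFGF. Uqcrc2 read 10.21, 10.30, 10.83 and 10.83, higher in both MSC arrays. MSC without bFGF minus osteoblasts was -0.58 for Uqcrc1 and 0.53 for Uqcrc2. Uqcrb, which had the highest mean of the complex, ranged over 0.19 and its 3 probe sets spanned 0.15 to 0.18 in that pair.

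Complex IV, cytochrome c oxidase, held both the widest and some of the narrowest ranges among members. Its nuclear-encoded subunits come in general forms and in forms known from particular tissues such as heart, skeletal muscle or testis. The 10 genes of general forms had a median difference from ESC of 0.28 in both MSC arrays, and 8 of the 10 were higher in both MSC arrays than in both controls. Of the 8 genes of tissue-restricted forms, 4 were under the floor everywhere.

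Cox6a2, the heart and skeletal muscle form of subunit VIa, read 6.52 in ESC, 6.82 in osteoblasts, 9.44 in MSC without bFGF and 9.19 with bFGF. Both controls were within 0.4 of the floor and both MSC arrays far above it. The differences were 2.92 and 2.67 from ESC and 2.62 and 2.37 from osteoblasts, for MSC without and with bFGF. Cox6a1, the general form, read 9.78, 9.72, 10.00 and 10.13, with differences of at most 0.40.

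Cox7b2, the testis form of subunit VIIb, read 4.50 in ESC, 4.05 in osteoblasts, 6.89 in MSC without bFGF and 7.10 with bFGF. It was under the floor in both controls, so the size of its differences, from 2.38 to 3.05, depends on background. Cox7b, the general form, read 9.70, 9.46, 9.43 and 9.50 by the probe set used, with ESC highest and the other arrays close together. Its other probe set read 8.78, 8.31, 7.73 and 8.60, with MSC without bFGF lowest. That probe set gave -1.05 for MSC without bFGF minus ESC, past 2-fold.

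Markers of the tissues from which these forms are known were mostly under the floor. The 7 testis markers were under the floor in every array. Of 9 striated muscle markers, 2 were above the floor in ESC, 2 in osteoblasts, 3 in MSC without bFGF and 2 with bFGF, with summed linear levels of 661, 678, 653 and 846. Ckm, the muscle creatine kinase, was above the floor in 1 array, at 6.31 in MSC without bFGF. The promoter of Cox6a2 was not among those matched.

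Cox7a1, the heart and muscle form of subunit VIIa, went the other way. It read 7.56 in ESC, 6.81 in osteoblasts, 6.12 in MSC without bFGF and 6.47 with bFGF, and was under the floor in MSC without bFGF. The differences from ESC were -1.44 without and -1.09 with bFGF. Its general counterpart Cox7a2 read 9.28, 9.43, 10.11 and 10.08, higher in both MSC arrays than in both controls. Cox7a2l, a related protein that joins complexes III and IV in supercomplexes, read 8.32, 8.80, 9.43 and 9.36, and was 1.10 and 1.03 higher than in ESC without and with bFGF.

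Cox6b2, the testis form of subunit VIb, was above the floor in ESC alone, at 6.55, with 5.75 in osteoblasts, 5.62 in MSC without bFGF and 5.50 with bFGF. Cox6b1, the general form, read 10.09, 10.18, 10.43 and 10.30. Cox4i1, the general form of subunit IV, read 9.79 in ESC, 10.22 in osteoblasts, 10.71 in MSC without bFGF and 10.59 with bFGF. Its counterpart Cox4i2, known from lung, stayed under the floor between 6.08 and 6.39. Cox8a, the general form of subunit VIII, read 9.97, 10.12, 10.54 and 10.35, while Cox8b and Cox8c were under the floor in every array. Ndufa4l2, a gene known to respond to low oxygen, lay between 5.46 and 6.05, and Ndufa4 between 11.01 and 11.35.

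**Figure D3:**
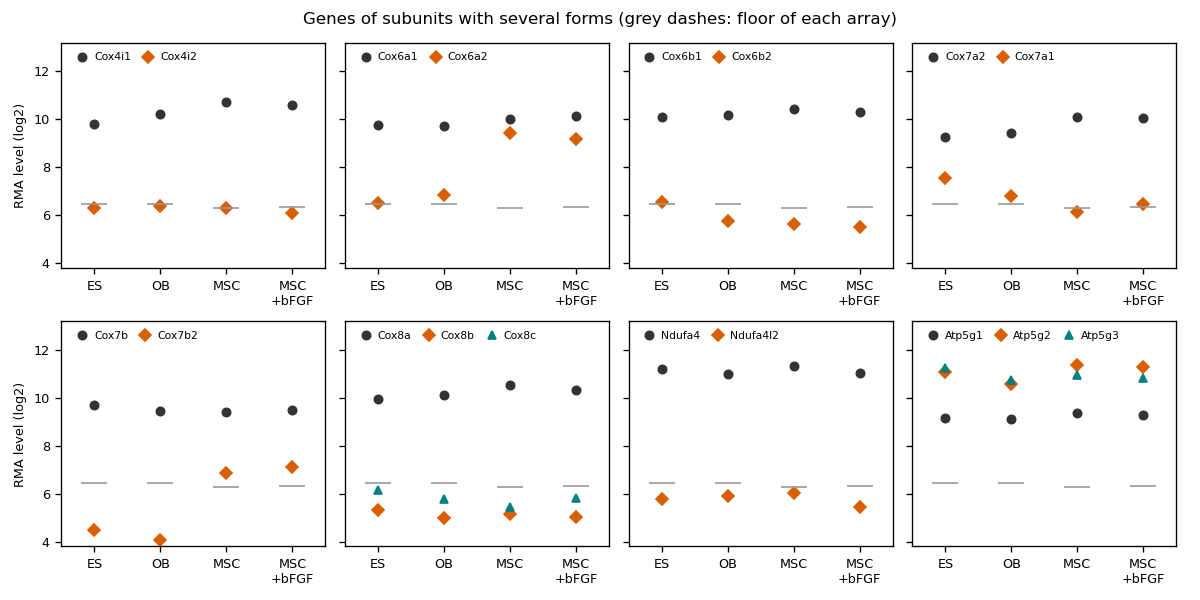
RMA level (log2, vertical axis) in each of the 4 arrays (horizontal axis: ES, embryonic stem cells; OB, osteoblasts; MSC without and with bFGF) for 8 groups of genes that encode forms of the same subunit, with grey dashes at the floor of each array. Cox6a2 is near the floor in the controls and at 9.44 and 9.19 in the MSC arrays, Cox7b2 passes the floor in the MSC arrays alone, and Cox7a1 is highest in ESC.

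The subunits of the Cox5 pair differed little between arrays. Cox5a read 9.24 in ESC, 9.35 in osteoblasts, 9.71 in MSC without bFGF and 9.85 with bFGF. Cox5b, at 11.12, 11.15, 11.24 and 11.24, had a range of 0.12.

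In ATP synthase the catalytic head shared the order seen in complex I, with small differences. All 5 F1 genes were higher in both MSC arrays than in both controls. Atp5a1, the alpha subunit, read 11.96 in ESC, 11.92 in osteoblasts, 12.06 in MSC without bFGF and 11.99 with bFGF. The catalytic beta subunit Atp5b read 12.38, 12.35, 12.61 and 12.70, and the central stalk gene Atp5c1 (gamma) read 11.29, 11.31, 11.42 and 11.40. These differences, apart from that of Atp5b in MSC with bFGF minus osteoblasts (0.35) or ESC (0.31), were near or within the spread between probe sets. Atp5d, the delta subunit, read 10.88, 11.18, 11.56 and 11.48.

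The 7 genes of the peripheral stalk and membrane part did not share that order: 2 were higher in both MSC arrays, Atp5l and Atp5h, and 1, Atp5j, was lower. For Atp5h this rests on the probe set used. Atp5l, subunit g, read 8.62 in ESC, 8.65 in osteoblasts, 9.68 in MSC without bFGF and 9.48 with bFGF. Its 6 probe sets gave 1.03 to 1.15 for MSC without bFGF minus osteoblasts and which gene copy each of them reads is uncertain. Atp5j, coupling factor 6, read 10.79, 10.93, 10.57 and 10.71. For all 17 ATP synthase genes the median of MSC with bFGF minus ESC was 0.14, and it was -0.05 after loess.

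The c ring, through which protons pass, is built from the same mature protein encoded by 3 genes. Atp5g2 read 11.10 in ESC, 10.59 in osteoblasts, 11.39 in MSC without bFGF and 11.30 with bFGF, with osteoblasts lowest. Atp5g3 read 11.25, 10.76, 10.98 and 10.82, with ESC highest. Atp5g1 ranged over 0.23. Osteoblasts minus ESC was -0.51 for Atp5g2 and -0.50 for Atp5g3, against -0.02 for Atp5g1.

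The comparison the series was made for, MSC with against without bFGF, showed little in these genes. The median difference was -0.04, against -0.06 over all genes and -0.004 over those above the floor. Of the 82 members, 32 were higher with bFGF, with 49.4% of all genes above the floor higher. None reached 1.5-fold either way, against backgrounds of 7.45% higher and 3.34% lower, nor 2-fold, against 4.09% and 0.467%. The highest differences above the floor were 0.34 for Cox7a1, 0.33 for Uqcrc1 and 0.33 for Atp5pb, a peripheral stalk subunit. The other probe set of Atp5pb gave 0.17, and Cox7a1 was under the floor in MSC without bFGF. The lowest differences were -0.40 for Ndufv1, -0.37 for Atp5j2 and -0.37 for Atp5mpl, small subunits of the ATP synthase membrane part. Medians by complex lay between -0.08 and 0.05; those of complexes II and IV were -0.00 and -0.07 and became 0.01 and 0.01 after the loess curve was removed. The macrophage markers differed by a median of 2.78 in the same pair.

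Of the 17 members with several probe sets, most were read alike by them. The median spread between the probe sets of a member was 0.06 to 0.09 over the 6 pairs. The widest spread was that of Cox7b: the probe set used differed by 0.07 between MSC with and without bFGF, and its other probe set, at 8.78 in ESC, 8.31 in osteoblasts, 7.73 in MSC without bFGF and 8.60 with bFGF, by 0.87. The latter exceeds any bFGF difference among the probe sets used, so the value for Cox7b rests on the choice of probe set. The probe sets of Cox6c, Ndufb11, Atp5h, Atp5pb, Ndufa11, Uqcr11, Atp5md, Cox5b and Atp5g1 differed in sign in some pairs. For MSC without bFGF minus ESC the probe set used for Cox6c gave 0.10 and its other probe set -0.14, so the place of Cox6c among the 57 genes higher in both MSC arrays rests on that choice as well. For MSC with bFGF minus osteoblasts the probe sets of Ndufb11 gave -0.26 and 0.05, and those of Atp5h gave -0.01 to 0.17. The place of Atp5h among the 57 thus rests on the choice of probe set too. Cox7a2l was read as 1.10 and 1.37 by its probe sets for MSC without bFGF minus ESC.

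Genes that build or feed the chain were taken from other lists. Of 42 assembly factors, which insert cofactors and join subunits, 32 were higher in both MSC arrays than in both controls. That order held for 24.4% of all genes and 31.5% of those above the floor. The median of the assembly factors was 0.51 for MSC without bFGF minus ESC and 0.50 minus osteoblasts. Ndufaf4, a complex I assembly factor, read 7.71 in ESC, 7.02 in osteoblasts, 8.35 in MSC without bFGF and 8.05 with bFGF. Uqcc2, for complex III, read 7.17, 7.67, 8.66 and 8.05, and its bFGF difference of -0.61 was the lowest of the list above the floor.

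The ribosomes that make the mitochondrially encoded subunits stood higher as well. Of 77 mitochondrial ribosome genes, 59 were in that order (background 31.5%). Their medians were 0.64 and 0.63 for MSC without and with bFGF minus osteoblasts. In these pairs 14 and 12 of them were 2-fold or more higher (backgrounds 8.17% and 7.5%). Against ESC 9 and 6 were 2-fold or more higher (backgrounds 10.4% and 11.3%). Mrpl21 read 8.38 in ESC, 7.42 in osteoblasts, 9.12 in MSC without bFGF and 8.96 with bFGF. The cytosolic ribosome, taken as a comparison outside the mitochondrion, also stood higher: 33 of its 50 measured genes were in that order (background 31.5%). Its median was 0.48 for both MSC arrays minus osteoblasts. Of 27 import genes 18 were in that order (background 31.5%). Timm10, a chaperone between the membranes, read 7.79, 7.39, 9.22 and 8.97.

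Cycs, cytochrome c itself, read 10.46 in ESC, 9.89 in osteoblasts, 10.95 in MSC without bFGF and 11.08 with bFGF. In the list of electron and inner membrane carriers to which it belongs, 13 of 27 genes were higher in both MSC arrays and 4 lower, against 24.4% of all genes higher. After loess its median for MSC without bFGF was 0.02 from osteoblasts and 0.01 from ESC. Coq9, needed for ubiquinone synthesis, read 8.55, 9.12, 10.08 and 9.80, and Coq6 of the same route read 7.30, 7.19, 6.85 and 6.93.

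Of 18 tricarboxylic acid cycle genes, 9 were higher in both MSC arrays (background 31.5%) and 4 lower (background 21.6%). Dld, the shared dehydrogenase subunit of the pyruvate and 2-oxoglutarate complexes, read 8.91 in ESC, 9.21 in osteoblasts, 10.01 in MSC without bFGF and 10.08 with bFGF. The succinyl-CoA ligase genes went apart. Sucla2, of the ADP-forming enzyme, read 8.89, 9.05, 7.60 and 7.43, and Suclg2, of the GDP-forming enzyme, read 9.00, 8.82, 9.97 and 9.42.

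Glycolysis and lactate genes lay on the opposite side. Of 23, 2 were higher in both MSC arrays (background 31.5%) and 15 lower (background 21.6%). Their medians from ESC were -0.87 without and -0.63 with bFGF. Slc2a3, the glucose transporter GLUT3, read 11.96 in ESC, 6.61 in osteoblasts, 6.06 in MSC without bFGF and 5.58 with bFGF, so ESC alone stood high. Pdk4, an inhibitory kinase of pyruvate dehydrogenase, was above the floor in osteoblasts alone, at 6.71. Slc16a3, a lactate exporter, read 10.05, 9.03, 6.83 and 8.71, and was 1.88 higher with bFGF than without.

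Of 23 regulators of mitochondrial biogenesis, 11 were higher in both MSC arrays, against 24.4% of all genes. Myc read 9.05 in ESC, 9.07 in osteoblasts, 10.78 in MSC without bFGF and 11.03 with bFGF, the highest of the list in each comparison of MSC with a control. Tfam, which packs and transcribes mitochondrial DNA, read 8.39, 7.04, 8.13 and 8.38, with osteoblasts lowest. Esrra, the estrogen-related receptor alpha, read 7.26, 7.79, 7.94 and 8.00.

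**Figure D4:**
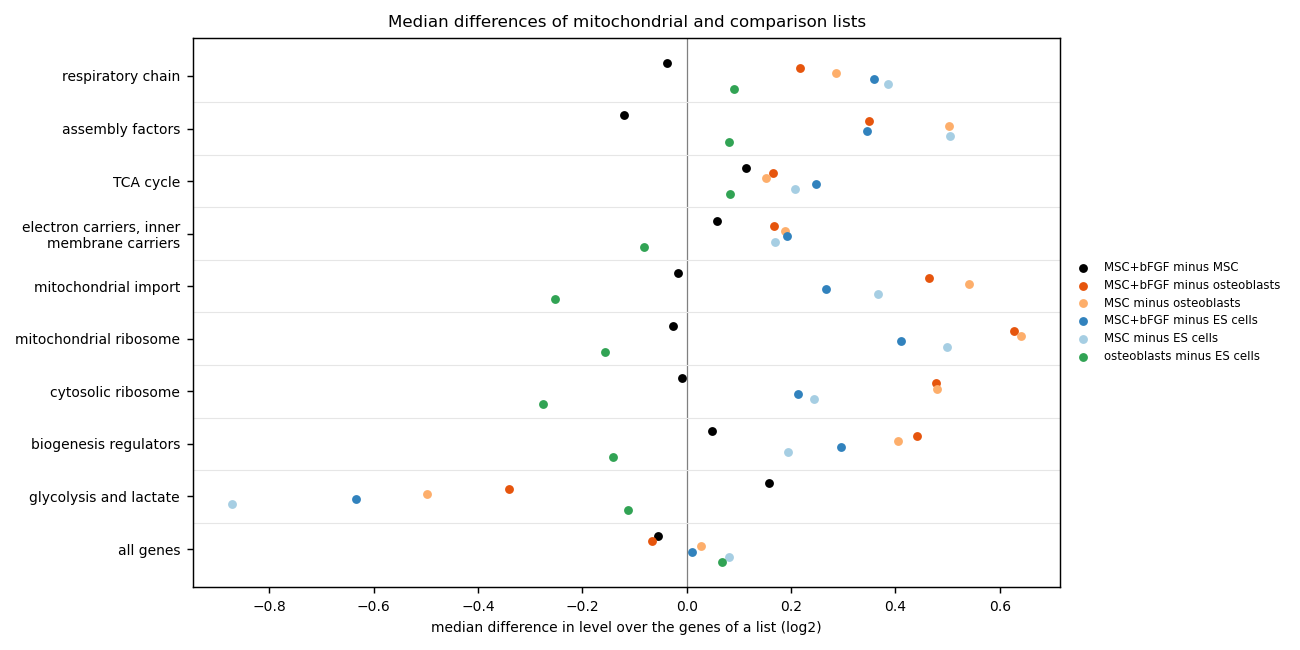
Median difference in level (log2, horizontal axis) over the genes of each list (rows; TCA, tricarboxylic acid), with 1 coloured point for each of the 6 pairs of arrays and all 19938 genes in the lowest row. In the pairs of MSC with a control the respiratory chain lies between 0.22 and 0.39 and glycolysis between -0.87 and -0.34.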

How the data were processed

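The deposited table held 1 log2 level per probe set for each of 4 Affymetrix whole-transcript arrays. Per the labels' protocols, 100 ng of RNA was amplified and 15 µg of cRNA fragmented. The authors made the levels with Expression Console and RMA, per the submitters' processing notes; the log2 scale was inferred from the values (1.40 to 14.28), while software versions and genome build were not given in the sources used here. RMA makes array distributions alike, so a general difference in RNA per cell would not show.

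Of 35556 probe sets, 21789 had 1 symbol, 1621 several and 12146 none; 6 with several symbols that name members were left out. A gene counted as higher or lower at 2-fold if its higher array was above the floor. Counting was tested on simulated data. No test was possible with 1 array per group, and the number of arrays limits the precision. Members, lists and motifs were chosen with earlier results of these data known. Named genes were subunit forms, catalytic members, members with a range of 1 or more, the highest and lowest of each complex by mean level, and the 3 highest and lowest differences per pair (1 per other list); the rest illustrate a count and were chosen after their values were seen. Alternatives were averaging the probe sets of a gene, other floors and thresholds, centring, loess, repeated quantile normalization, and leaving out groups of members. Python 3.11.15, numpy 2.4.6, pandas 2.3.3, statsmodels 0.14.6 and matplotlib 3.10.9 were used.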

Additional observations from a re-analysis of the deposited data

How the results depend on the processing

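The 6 median differences over all members moved by less than the SD between probe sets of their pair in 42 of 42 recomputations. These included leaving out tissue-restricted forms. That SD is of single genes and exceeds some of the medians. It was 0.22 against a median of 0.09 for osteoblasts minus ESC, and 0.14 against -0.04 for the 2 MSC arrays. Such a median could vanish and still pass, so the 42 do not show that the medians are stable. Some medians became smaller: after loess they were 0.22 for MSC without bFGF minus ESC and 0.19 for MSC with bFGF minus ESC. They were 0.17 for both MSC arrays minus osteoblasts and 0.03 for osteoblasts minus ESC. Counts of members past a threshold moved more, and they rest on few genes. At 1.5-fold the members higher were 17 and 19 for MSC with and without bFGF minus osteoblasts (backgrounds 19.9% and 21.4%). They were 25 and 29 for the same arrays minus ESC (backgrounds 24.1% and 23.7%), and 3 for osteoblasts minus ESC (background 22.8%). Those lower were 0 and 1 for MSC with and without bFGF minus osteoblasts (backgrounds 18.4% and 20.7%). They were 2 and 2 for the same arrays minus ESC (backgrounds 18% and 19.8%), and 2 for osteoblasts minus ESC (background 19.6%). At 4-fold 2 and 2 members were higher in the osteoblast comparisons of MSC with and without bFGF. Of all genes above the floor, 115 of 10798 and 124 of 10973 were. In the ESC comparisons 3 and 3 were higher, against 295 of 10932 and 194 of 10977 genes. For osteoblasts minus ESC 0 members were higher, against 370 of 10927 genes. Lower than in ESC were 0 members with or without bFGF, against 404 of 10932 and 465 of 10977 genes. At 2-fold, for MSC without bFGF minus osteoblasts, 6 members were higher after centring and 4 after loess, against 748 and 712 of 10973 genes. For MSC without bFGF minus ESC, 6 were higher after loess (921 of 10977 genes) and 2 lower after centring (1420 of 10977). For MSC with bFGF minus ESC, 1 was lower after loess (1262 of 10932 genes) and 1 with quantile normalization repeated (1192 genes). With the floor at the 75th percentile or without tissue-restricted forms, 0 were lower than in ESC with or without bFGF, and without those forms 3 were higher for MSC with bFGF minus osteoblasts. The share of promoters with NRF1 letters was 1.61% when limited to measured genes. The order of both MSC arrays above both controls held for 56 members with probe sets averaged and 54 after centring, settings chosen after the data were seen. Differences of single genes moved by less than the SD between probe sets of that pair in 1212 recomputations and by more in 12, mostly genes near the floor after loess and Cox7b when its probe sets were averaged. No paired analysis was possible because each group has 1 array. Levels under the floor limit what can be said of Cox7b2, Cox6b2 and Cox7a1.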

Other observations

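The 67 member promoters were rich in CpG. The 250 bases before the start of each member held a median of 14 CpG, with a lowest of 1 and a highest of 35. In 27025 promoters of all genes the same bases held a median of 6. A median over the measured genes alone was not taken.

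Among the 5 with NRF1 letters, MSC without bFGF minus osteoblasts was 0.79 for Atp5g2 and 0.28 for Cox6a1, against -0.06 for Ndufa11 and -0.58 for Uqcrc1. Among the 10 with YY1 letters it ran from -0.36 for Atp5j to 0.76 for Ndufb8, with a median of 0.31 against 0.29 over all 82 members.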
